A study of Homo sapiens with 12 samples.

Results

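The data described here are the transcript levels of 10 genes of the actin cytoskeleton and of its transcriptional programme in U87, an established line of human glioblastoma (U-87 MG). They are the actins ACTB, ACTG1 and ACTA2, the actin-associated genes TAGLN, CNN1, MYL9 and TPM1, and the SRF/YAP target genes CCN1, CCN2 and ANKRD1. All 10 were found by Ensembl identifier in the deposited table of 20263 genes, and all 10 were among the 11731 genes tested, those with at least 1 TPM in at least 3 libraries. TPM is a transcript's level per length, scaled to the same total in every library. The group was chosen from measured values, because ACTB, a common reference gene, was higher in every knockout group than in vector. Levels against vector are therefore given as a description.

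Poly(A) RNA was sequenced from 4 groups of 3 libraries, and every group was kept at 1% O2, for 72 h according to the record of the sequencing. Cells with the empty vector formed the vector group, and the others were HIF1α-ko (knockout of HIF1A), HIF2α-ko (knockout of EPAS1) and HIF1α/2α-ko (both genes knocked out, the double knockout). No library came from cells in normal oxygen, so each comparison is between genotypes in hypoxia. How the knockouts were made, and whether a group is 1 clone or a pool of cells, is not given in the sources used here. Nothing says that libraries of a group came from separate cultures, so p-values measure only the spread between these libraries, which may be technical. The vector columns are headed H1, H2 and H3 and are called vector libraries H1, H2 and H3 below, whereas knockout libraries carry a replicate number.

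Actin monomers assemble into filaments, and tropomyosin, calponin, transgelin and myosin light chain bind to or pull on these filaments. Free monomers hold the coactivators MRTFA and MRTFB in the cytoplasm. When monomers are used up in filaments, these coactivators enter the nucleus and act with the transcription factor SRF at CArG boxes in the promoters of actin and contractile genes. YAP1 and WWTR1 (TAZ) respond to the same tension through the TEAD factors, and CCN1, CCN2 and ANKRD1 are widely read as their targets. HIF1A and EPAS1 encode oxygen-regulated subunits of the hypoxia-inducible factors, HIF1α and HIF2α. The factor with HIF1α turns on glycolysis genes such as GAPDH and PGK1.

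Promoter windows from RefSeq (GRCh38.p14) were matched for 6 of the 10 genes, ACTA2, ACTG1, ANKRD1, CCN2, CNN1 and TPM1, and no window was matched for ACTB, CCN1, MYL9 or TAGLN. Of each window, the 250 bases before the annotated start were searched on both strands for the TEAD core GGAATG, for the CArG box and for the cores of HIF binding sites ACGTG and GCGTG. The CArG box was searched only in its strict form, CC, then 6 bases of A or T, then GG. Over 35116 windows of this length, 11.9% held the TEAD core, 1.16% a CArG box, 18.5% ACGTG and 32.2% GCGTG. A match is a string of letters and not a bound site. The starts of the ACTG1, TPM1, ANKRD1, CNN1 and second ACTA2 windows lie inside the gene spans given below, so these windows lie wholly or partly within the annotated gene. The CCN2 and ANKRD1 windows are shown because both genes are YAP targets. In the fit of all 4 groups given below, ANKRD1 passed the test between each pair of knockout groups and CCN2 between none. The ACTG1 window is shown because γ-actin is the partner of β-actin and its level is set beside it below. Capitals mark the TEAD core in CCN2 and ANKRD1 and the CArG box in ACTG1. The sequences run 5′ to 3′ on the minus strand, at chr6:131951373-131951622 for CCN2, chr10:90921088-90921337 for ANKRD1 and chr17:81512800-81513049 for ACTG1.
CCN2: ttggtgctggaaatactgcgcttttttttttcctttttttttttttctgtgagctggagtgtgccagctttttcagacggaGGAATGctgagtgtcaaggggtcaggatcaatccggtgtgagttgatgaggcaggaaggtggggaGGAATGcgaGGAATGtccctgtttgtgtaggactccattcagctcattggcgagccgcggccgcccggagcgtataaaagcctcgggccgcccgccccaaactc
ANKRD1: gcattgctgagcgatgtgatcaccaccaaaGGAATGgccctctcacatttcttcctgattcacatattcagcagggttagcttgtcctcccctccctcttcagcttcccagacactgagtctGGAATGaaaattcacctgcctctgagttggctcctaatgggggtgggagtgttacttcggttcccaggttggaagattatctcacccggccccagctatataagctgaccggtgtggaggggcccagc
ACTG1: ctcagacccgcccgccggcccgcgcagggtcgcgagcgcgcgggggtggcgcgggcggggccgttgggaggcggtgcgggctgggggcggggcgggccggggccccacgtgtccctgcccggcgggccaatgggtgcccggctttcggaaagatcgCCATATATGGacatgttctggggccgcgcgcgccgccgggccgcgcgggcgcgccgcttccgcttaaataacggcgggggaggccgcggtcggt
CCN2 held 3 TEAD cores, which began 169, 104 and 95 bases before the start, and ANKRD1 held 2, at 220 and 128 bases. ACTG1 held 1 CArG box, CCATATATGG, 94 bases before its start, and a palindromic stretch that reads ACGTG on both strands at 145 and 144 bases. The second ACTA2 window, which starts at chr10:88952774, held 1 TEAD core and 1 GCGTG, and no match was found in the first ACTA2 window or in those of CNN1 and TPM1. The second ACTA2 window also holds ccctatatgg and ccttgtttgg. Each differs from the strict CArG box at 1 base, so neither was counted, and the search does not show that ACTA2 lacks a CArG element.

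By position in GRCh38 (GENCODE 29), ACTB lies on chr7:5527147-5563784, ACTG1 on chr17:81509971-81523847, ACTA2 on chr10:88935074-88991339, TAGLN on chr11:117199321-117204782, CNN1 on chr19:11538717-11550323, MYL9 on chr20:36541484-36551447, TPM1 on chr15:63042632-63071915, CCN1 on chr1:85580761-85583962, CCN2 on chr6:131948176-131951373 and ANKRD1 on chr10:90912096-90921276. All are protein-coding genes measured over their transcripts as a whole. CNN1, CCN1 and ANKRD1 overlap no other annotated gene. ACTA2 shares its span with STAMBPL1, ACTA2-AS1 and FAS on the opposite strand and TAGLN with PCSK7. Antisense genes overlap ACTB, ACTG1, MYL9, TPM1 and CCN2. The strand setting of the counting is not given, so reads from such partners cannot be told apart. ACTB and ACTG1 are near-identical in their coding sequence and have many processed pseudogenes, so the split of reads between them is uncertain.

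Across libraries the 2 targeted transcripts were lower where they were targeted, though not absent, and a level over the whole transcript does not show an edit. HIF1A was 124 TPM ± 23.5 (SD, n = 3) in vector, 48.5 ± 9.35 for HIF1α-ko, 86.8 ± 18.1 for HIF2α-ko and 75.5 ± 11.9 for the double knockout, and EPAS1 was 322 ± 31.5, 265 ± 20.2, 107 ± 17 and 117 ± 14.4 in the same order. HIF1A was thus also lower than vector in HIF2α-ko, where it was not targeted. The double knockout, at 67.8 to 89.2 TPM, overlapped HIF2α-ko, at 76.1 to 108 TPM, so HIF1A did not separate these groups. The table keeps no read depth, so no counting error can be given. Of 6 markers of the line, VIM (5635 to 14690.3 TPM), S100A6, TIMP1, CD44 and SPARC were at 312 TPM or more in all 12 libraries and NES was at 2.64 to 6.17 TPM. Their sum was 17171 to 19113 TPM in vector, 16447 to 18813 in HIF1α-ko, 13089 to 15768 in HIF2α-ko and 11171 to 15169 in HIF1α/2α-ko. Its part in the results was not tested. PTPRC, which marks leukocytes, was listed at 0 in 10 of the 12 libraries, although CD68 was 587 to 1633 TPM. Vector library H1 stood apart: 9.07% of tested genes were at least 2-fold above or below both other vector libraries in H1, against 1.72% in H2 and 1.67% in H3. The median log2 difference of all tested genes was 0.18, -0.04 and 0.21 in the HIF1α-ko, HIF2α-ko and double knockout groups against vector, 0.23 in HIF1α-ko against HIF2α-ko, 0.07 in HIF1α/2α-ko against HIF1α-ko and 0.23 in HIF1α/2α-ko against HIF2α-ko. Scaling the libraries by median ratios brought these to within 0.05 of 0 and changed the balance of calls. Genes called higher and lower went from 2031 and 1029 to 1278 and 1527 in HIF1α-ko against vector, from 595 and 691 to 753 and 579 in HIF2α-ko against vector and from 3732 and 1741 to 2854 and 2600 in HIF1α/2α-ko against vector. They went from 2084 and 865 to 1032 and 1300 in HIF1α-ko against HIF2α-ko and from 3933 and 1509 to 2748 and 2468 in HIF1α/2α-ko against HIF2α-ko. Small differences in TPM are to be read against these medians.

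ACTB encodes β-actin, one of the 2 cytoplasmic actins. It was at 1132, 466 and 411 TPM in vector libraries H1, H2 and H3, at 1998, 1624 and 1675 TPM in HIF1α-ko, at 1497, 1336 and 1387 TPM in HIF2α-ko and at 2291, 1831 and 1995 TPM in HIF1α/2α-ko. All 9 knockout libraries were above all 3 vector libraries, and H1 lay between the other vector libraries and the knockouts. This is the pattern for which the group was chosen. The log2 difference from vector, on the log2(TPM + 1) scale used throughout, was 1.55 (SE 0.28) in HIF1α-ko, 1.22 (SE 0.28) in HIF2α-ko and 1.76 (SE 0.28) in the double knockout, and without H1 it was 2.00, 1.68 and 2.21 (SE 0.12 in each). By rank among all genes of the table, ACTB was 133rd, 315th and 345th in H1, H2 and H3 and between 62nd and 102nd in the knockout libraries.

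ACTG1 encodes γ-actin, the other cytoplasmic actin, and its level was flat beside that of ACTB. It was at 2058, 2136 and 1943 TPM in vector, 2230.5, 2201 and 1809 TPM in HIF1α-ko, 1644, 1751 and 1719 TPM in HIF2α-ko and 2470.0, 1942 and 1958 TPM in HIF1α/2α-ko. The 3 HIF2α-ko libraries lay below all vector libraries, and the other groups overlapped vector. The highest of the 12 libraries was 1.5 times the lowest for ACTG1 and 5.58 times for ACTB. The ratio of ACTB to ACTG1 was 0.55 in H1, 0.218 in H2 and 0.211 in H3, between 0.738 and 0.926 in HIF1α-ko, between 0.763 and 0.911 in HIF2α-ko and between 0.928 and 1.02 in the double knockout. By these values, ACTB made up 17.9% and 17.4% of the sum of both in H2 and H3 and 35.5% in H1. In the knockout libraries it made up 42.5% to 50.5%. The split of reads between these near-identical genes is uncertain, so the ratios and shares are uncertain too. The sum of both was 3189, 2602 and 2354 TPM in H1, H2 and H3 and 3086 to 4761 TPM in the knockout libraries.

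ACTA2, the smooth muscle α-actin, was at 151, 113 and 114 TPM in H1, H2 and H3, 147, 115 and 105 TPM in HIF1α-ko, 113, 79.6 and 81.7 TPM in HIF2α-ko and 120.1, 109.9 and 113 TPM in HIF1α/2α-ko. Only the HIF2α-ko libraries were all below vector, and by a narrow margin, 113 against 113 TPM after rounding. Its log2 difference from vector was -0.05 for HIF1α-ko, -0.46 for HIF2α-ko and -0.12 for the double knockout (SE 0.17 in each).

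Of the actin-associated genes, TAGLN (transgelin, which cross-links filaments) and CNN1 (calponin 1, an inhibitor of actomyosin) were lower in the knockouts than in vector libraries H2 and H3. TAGLN was at 1.82 TPM in H1 but at 18 and 17.1 TPM in H2 and H3, and it was at 4.41, 3.81 and 4.55 TPM in HIF1α-ko, 1.7, 3 and 3.05 TPM in HIF2α-ko and 1.41, 3.45 and 5.31 TPM in HIF1α/2α-ko. Its knockout levels were all below H2 and H3, and H1 fell among them. CNN1 was at 37 TPM in H1 and at 109 and 99.8 TPM in H2 and H3, against 34.6, 19 and 23.4 TPM in HIF1α-ko, 64.4, 27.6 and 30.7 TPM in HIF2α-ko and 32.6, 17.6 and 15.8 TPM in HIF1α/2α-ko. The HIF1α-ko and HIF1α/2α-ko libraries were below all 3 vector libraries for CNN1, whereas 1 HIF2α-ko library was above H1.

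The log2 difference of CNN1 from vector was -1.53, -0.94 and -1.78 in the HIF1α-ko, HIF2α-ko and double knockout groups (SE 0.43 in each), and -2.02, -1.44 and -2.27 without H1. For TAGLN it was -0.92, -1.49 and -1.28 (SE 0.59 in each), and -1.82, -2.39 and -2.18 without H1. The 2 genes thus moved opposite to ACTB both across the vector libraries and from H2 and H3 to the knockouts. Smooth muscle markers outside the group were led by SMTN (50.3 to 171 TPM), while MYH11, the defining myosin of that cell type, was at 0 to 0.0965 TPM. Summed over 5 smooth muscle markers, the level was 139.7 to 152 TPM in vector, 155 to 172 in HIF1α-ko, 103 to 133 in HIF2α-ko and 52.6 to 85 in the double knockout. Whether this sum has a part in the levels of TAGLN and CNN1 was not tested, and in bulk RNA a smaller share of expressing cells and less RNA per cell cannot be told apart.

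MYL9, a regulatory light chain of myosin II, was at 301, 405 and 367 TPM in H1, H2 and H3, 308, 247 and 231 TPM in HIF1α-ko, 291, 296 and 289 TPM in HIF2α-ko and 312, 243 and 266 TPM in HIF1α/2α-ko. All knockout libraries were below H2 and H3, and those of HIF2α-ko were also below H1. TPM1, a tropomyosin that lies along the filament, stayed between 75 and 122 TPM in all 12 libraries, with each knockout group overlapping vector. Its log2 difference from vector was 0.13, -0.24 and -0.12 in the HIF1α-ko, HIF2α-ko and double knockout groups (SE 0.14 in each).

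CCN1 and CCN2 (CYR61 and CTGF), secreted matricellular proteins, were higher in the knockouts than in H2 and H3 but not than in H1. CCN1 was at 446, 116 and 102 TPM in H1, H2 and H3, 332, 220.1 and 202 TPM in HIF1α-ko, 301, 192 and 187 TPM in HIF2α-ko and 327, 196 and 218 TPM in HIF1α/2α-ko. CCN2, a far less abundant transcript, was at 8.43, 1.65 and 1.7 TPM in vector, 8.37, 5.52 and 6.04 TPM in HIF1α-ko, 6.15, 4.21 and 4.49 TPM in HIF2α-ko and 5.58, 3 and 2.99 TPM in HIF1α/2α-ko. For both genes the first library of each of the 4 groups was the highest, and H1 was the highest of the 12. The log2 difference of CCN1 from vector was 0.49, 0.34 and 0.46 in the HIF1α-ko, HIF2α-ko and double knockout groups (SE 0.45 in each), and 1.16, 1.01 and 1.14 without H1. For CCN2 it was 0.89, 0.53 and 0.21 (SE 0.41 in each), and 1.50, 1.14 and 0.82 without H1. The CCN2 value of 0.21 in HIF1α/2α-ko was -0.07 after quantile normalization.

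ANKRD1, which encodes an ankyrin repeat protein of muscle and endothelium, was the gene of the 10 whose groups were all separate from each other. It was at 10.1, 8.57 and 8.38 TPM in H1, H2 and H3, 3.66, 4.14 and 4.42 TPM in HIF1α-ko, 12.1, 13.6 and 14.5 TPM in HIF2α-ko and 1.96, 2.27 and 2.97 TPM in HIF1α/2α-ko. The order was HIF2α-ko, vector, HIF1α-ko and HIF1α/2α-ko from highest to lowest. The share of all tested genes whose groups were likewise all separate was not counted, so the pattern cannot be called unusual. Against vector the log2 difference was -0.98 for HIF1α-ko, 0.53 for HIF2α-ko and -1.57 for the double knockout (SE 0.16 in each).

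Vector library H1 lay at least 2-fold from both other vector libraries for 5 of the 10 genes, above them for ACTB, CCN1 and CCN2 and below them for TAGLN and CNN1, beside 9.07% of all tested genes. For these 5 genes H1 differed from H2 and H3 in the same direction as the knockouts did. No member stood apart in this way in H2 or H3, beside 1.72% and 1.67% of all tested genes. What sets H1 apart was not tested. Counted against all 3 vector libraries, 3 genes did not overlap vector in HIF1α-ko (beside 39.6% of all tested genes), 5 in HIF2α-ko (beside 30.5%) and 3 in the double knockout (beside 50.5%). Against H2 and H3 alone these were 7 (beside 61.6%), 9 (beside 55.2%) and 7 (beside 64.6%).

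In the fit against vector, 4 of the 10 genes were called in HIF1α-ko, where 26.1% of all tested genes were, 1 in HIF2α-ko, where 11% were, and 4 in HIF1α/2α-ko, where 46.7% were. Called here means an adjusted p under 0.05 in limma with Benjamini-Hochberg adjustment over all tested genes. Without H1, 7 were called for HIF1α-ko, 6 for HIF2α-ko and 7 for the double knockout, beside 35.8%, 21.3% and 48.4% of all tested genes. Nothing is read from these counts, since the genes were chosen on these differences.

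In the contrasts between the 3 knockout groups, 1 of the 10 genes, ANKRD1, was called in each. The differences hold no vector library, but all 4 groups shared 1 estimate of the spread, to which the vector libraries contributed. The background was 25.1% of all tested genes in HIF1α-ko against HIF2α-ko, 28.3% in HIF1α/2α-ko against HIF1α-ko and 46.4% in HIF1α/2α-ko against HIF2α-ko. ANKRD1 fell by 1.51 on the log2 scale (SE 0.16, adjusted p = 6.22e-05) in HIF1α-ko against HIF2α-ko, to 0.352 of the HIF2α-ko level of TPM + 1. It fell by 2.09 (SE 0.16, adjusted p = 2.52e-06) in HIF1α/2α-ko against HIF2α-ko. Between HIF1α/2α-ko and HIF1α-ko it fell by 0.59 (SE 0.16, adjusted p = 0.0166), and this call was lost without HIF1α-ko replicate 3 (adjusted p = 0.0656) or without HIF1α/2α-ko replicate 2 (adjusted p = 0.057). Over 23 alternative settings the adjusted p was 0.00149 to 0.0656 in that contrast, 2.88e-06 to 0.000729 in HIF1α-ko against HIF2α-ko and 3.2e-07 to 0.000199 in HIF1α/2α-ko against HIF2α-ko.

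The other 9 genes were not called between knockouts in this fit, whose intervals include the spread of the vector libraries. For ACTB the log2 difference was 0.32 (95% interval -0.29 to 0.94, adjusted p = 0.409) in HIF1α-ko against HIF2α-ko, 0.21 (-0.41 to 0.82, adjusted p = 0.628) in HIF1α/2α-ko against HIF1α-ko and 0.53 (-0.09 to 1.15, adjusted p = 0.145) in HIF1α/2α-ko against HIF2α-ko. The ACTB libraries of HIF1α-ko and HIF2α-ko did not overlap, at 1624 to 1998 and 1336 to 1497 TPM, and those of HIF1α-ko and HIF1α/2α-ko did. For ACTG1 the interval was 0.02 to 0.54 in HIF1α-ko against HIF2α-ko, -0.23 to 0.29 in HIF1α/2α-ko against HIF1α-ko and 0.05 to 0.57 in HIF1α/2α-ko against HIF2α-ko (adjusted p = 0.0511). TAGLN had the widest intervals, from -0.71 to 1.85 in HIF1α-ko against HIF2α-ko. MYL9 had narrow ones, from -0.48 to 0.15 in the same contrast.

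With the 3 vector libraries left out of the fit, the SE of ACTB was 0.11 in place of 0.28, and 1, 1 and 2 genes were called in HIF1α-ko against HIF2α-ko, HIF1α/2α-ko against HIF1α-ko and HIF1α/2α-ko against HIF2α-ko, beside 29.4%, 32.9% and 49.6% of all tested genes. ANKRD1 was called in each, and ACTB was higher by 0.53 in the double knockout than in HIF2α-ko (95% interval 0.28 to 0.78, adjusted p = 0.0034). The ACTB intervals of the other contrasts were 0.07 to 0.57 (adjusted p = 0.0538) in HIF1α-ko against HIF2α-ko and -0.04 to 0.46 (adjusted p = 0.186) in HIF1α/2α-ko against HIF1α-ko. With H1 alone left out, 2, 2 and 3 genes were called in the same order, beside 31.9%, 34.7% and 51.2% of all tested genes. These were ANKRD1 in each, ACTB in the first (adjusted p = 0.0464) and last (adjusted p = 0.00236), CCN2 in HIF1α/2α-ko against HIF1α-ko (adjusted p = 0.0385) and ACTG1 in HIF1α/2α-ko against HIF2α-ko (adjusted p = 0.0426).

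Deviations from the group mean correlated at 0.463 to 0.508 between the knockout libraries numbered 1, and less between those numbered 2 or 3. Libraries of different numbers were not compared, so a pairing by number was not established. A further fit, of the knockout groups alone, had that number as a block, and its smaller SEs rest on such a pairing. In that fit 7 of the 10 genes were called in HIF1α-ko against HIF2α-ko, 3 in HIF1α/2α-ko against HIF1α-ko and 6 in HIF1α/2α-ko against HIF2α-ko, beside 50.5%, 48.5% and 62.6% of all tested genes. ACTB was higher by 0.32 in HIF1α-ko than in HIF2α-ko (SE 0.06, adjusted p = 0.00288), by 0.21 in the double knockout than in HIF1α-ko (SE 0.06, adjusted p = 0.018) and by 0.53 in the double knockout than in HIF2α-ko (SE 0.06, adjusted p = 0.000128). With the block and median ratio scaling together, these were 0.07 (adjusted p = 0.457), 0.18 (adjusted p = 0.0798) and 0.25 (adjusted p = 0.0194), so 2 of the 3 calls were lost with that scaling.

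CNN1 was lower in HIF1α-ko than in HIF2α-ko in the blocked fit, by -0.59 (adjusted p = 0.00613), and lower in the double knockout than in HIF2α-ko, by -0.83 (adjusted p = 0.000675). Median ratio scaling with the block made both larger, -0.83 (adjusted p = 0.00265) and -1.10 (adjusted p = 0.000326). CCN2 was lowest in the double knockout, with -0.68 against HIF1α-ko (adjusted p = 0.00196) and -0.32 against HIF2α-ko (adjusted p = 0.036), and both calls were also made after median ratio scaling with the block. Its rise of 0.36 in HIF1α-ko over HIF2α-ko (adjusted p = 0.03), that of ACTG1 of 0.28 (adjusted p = 0.0449), that of ACTA2 of 0.42 (adjusted p = 0.00956) and that of TPM1 of 0.37 (adjusted p = 0.0289) were not called once the libraries were scaled by median ratios. In HIF1α/2α-ko against HIF2α-ko the block also called ACTG1 (0.31, adjusted p = 0.0259) and ACTA2 (0.34, adjusted p = 0.0163), again not after that scaling. TAGLN, MYL9 and CCN1 were called in none of the 3 blocked contrasts. Scaling by median ratios with the block left 3, 2 and 5 genes called, MYL9 now among them in both contrasts with HIF2α-ko, at -0.41 for HIF1α-ko (adjusted p = 0.015) and -0.37 for the double knockout (adjusted p = 0.0143).

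The first library of each group was the highest of its group for ACTB, ACTA2, CCN1 and CCN2. With the first library of all 4 groups left out, 6, 2 and 5 of the 10 genes were called in HIF1α-ko against HIF2α-ko, HIF1α/2α-ko against HIF1α-ko and HIF1α/2α-ko against HIF2α-ko, beside 47.1%, 45% and 60.7% of all tested genes. ANKRD1 was among them in each contrast, at -1.51, -0.55 and -2.07.

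Since ACTB is in common use as a reference gene, 15 other reference genes are set beside it. ACTB varied 5.58-fold from its lowest to its highest library, more than any of these 15. TFRC (4.62-fold), PGK1 (4.53-fold), GAPDH (4.35-fold), B2M (4.34-fold) and HPRT1 (3.92-fold) followed. RPL13A (1.33-fold), TUBB (1.37-fold), RPLP0 (1.5-fold) and EEF1A1 (1.54-fold) had the narrowest ranges, close to that of ACTG1.

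In HIF1α-ko and HIF1α/2α-ko, GAPDH and PGK1 were lower than in vector while ACTB was higher. The ratio of ACTB to either therefore changed more in these 2 groups than each gene alone. GAPDH, a glycolysis enzyme under HIF control, was at 30267, 40641 and 38235 TPM in H1, H2 and H3 and fell by 1.55 on the log2 scale in HIF1α-ko (SE 0.15, adjusted p = 0.000103) and by 1.50 in HIF1α/2α-ko (SE 0.15, adjusted p = 1.29e-05). In HIF2α-ko it differed from vector by 0.30 (adjusted p = 0.219). The ratio of ACTB to GAPDH was 0.0374, 0.0115 and 0.0107 in H1, H2 and H3, 0.138 to 0.147 in HIF1α-ko, 0.0303 to 0.033 in HIF2α-ko and 0.152 to 0.169 in the double knockout. PGK1 fell by 1.23 in HIF1α-ko and by 1.08 in HIF1α/2α-ko and rose by 0.78 in HIF2α-ko (adjusted p = 0.000222, 7.07e-05 and 0.00596). HPRT1 rose against vector in HIF1α/2α-ko (1.06, adjusted p = 0.000928). Of the 15, 6 were called against vector for HIF1α-ko, 2 for HIF2α-ko and 6 for the double knockout. Of all tested genes 26.1%, 11% and 46.7% were called in the same order. RPL13A differed from vector by -0.02, -0.22 and 0.08 in the HIF1α-ko, HIF2α-ko and double knockout groups (adjusted p = 0.876, 0.152 and 0.519). Between the double knockout and HIF2α-ko it differed by 0.30 (adjusted p = 0.0202), a call lost in 5 of 23 alternatives.

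**Figure D1:**
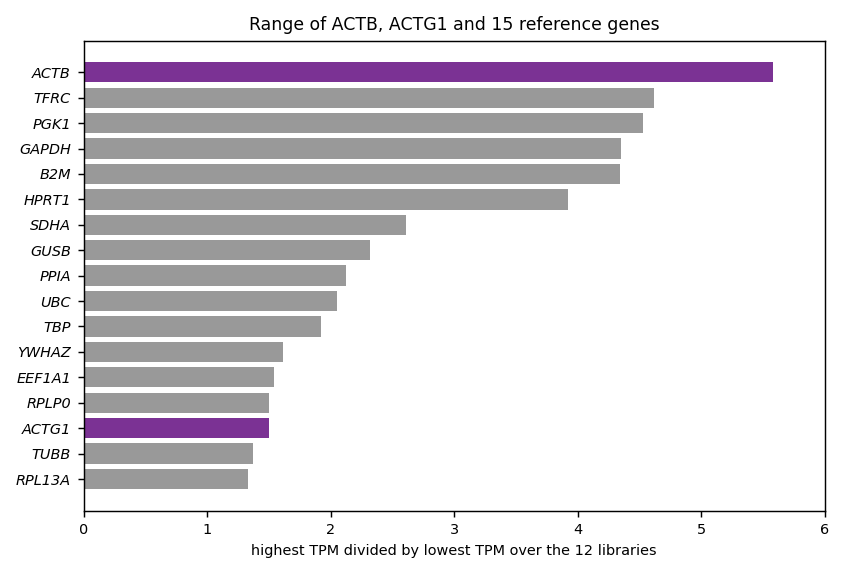
Highest TPM divided by lowest TPM over the 12 libraries (horizontal axis, linear, from 0) for ACTB and ACTG1 (purple) and 15 reference genes (grey). ACTB at 5.58 lies above all 15, and ACTG1 at 1.5 lies with TUBB and RPLP0.

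The 5 genes whose levels followed ACTB most closely over the 12 libraries were ACAT2, PTPA, FURIN, TWF2 and NFKB2, with Pearson's r on log2(TPM + 1) of 0.976, 0.975, 0.974, 0.97 and 0.968, out of 8011 genes with a mean of at least 5 TPM. The libraries share their groups, so this r is a description of the group pattern. TWF2 encodes twinfilin 2, an actin monomer-binding protein, and was at 181, 147 and 137 TPM in H1, H2 and H3 and at 212 to 278 TPM in the knockouts. FURIN, a proprotein convertase, was at 24.9, 4.42 and 5.41 TPM in vector and at 24.1 to 55.2 TPM in the knockouts. As with ACTB, H1 lay above H2 and H3 in each of the 5. The genes were picked for following ACTB over all 12 libraries, the vector libraries included. Their likeness to ACTB in vector is thus no separate observation.

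Transcripts of several upstream regulators of these genes differed between the knockouts. SRF was at 9.76, 5.59 and 5.27 TPM in H1, H2 and H3, 16.3, 14.7 and 13.7 TPM in HIF1α-ko, 7.03, 5.5 and 5.45 TPM in HIF2α-ko and 30.1, 23.2 and 21.6 TPM in HIF1α/2α-ko. HIF1α-ko and HIF1α/2α-ko did not overlap the other groups or each other. SRF rose by 1.05 on the log2 scale in HIF1α-ko (SE 0.21, adjusted p = 0.00468) and by 1.75 in HIF1α/2α-ko (SE 0.21, adjusted p = 4.93e-05) against vector and differed by -0.13 (adjusted p = 0.744) in HIF2α-ko. It was 1.19 higher in HIF1α-ko than in HIF2α-ko (adjusted p = 0.00233) and 1.89 higher in the double knockout than in HIF2α-ko (adjusted p = 3.01e-05). Its rise of 0.70 from HIF1α-ko to HIF1α/2α-ko (adjusted p = 0.0282) was lost in 7 of 23 alternatives, with adjusted p up to 0.0925.

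MRTFA, the SRF coactivator released from monomeric actin, was at 3.42, 2.46 and 2.58 TPM in vector, 3.97, 4.51 and 4.1 TPM in HIF1α-ko, 2.22, 2.41 and 1.81 TPM in HIF2α-ko and 4.27, 7.39 and 5.94 TPM in HIF1α/2α-ko. The double knockout was 0.83 above vector (adjusted p = 0.00319) and 1.11 above HIF2α-ko (adjusted p = 0.000488). MRTFB was called in 0 of 6 contrasts by limma, with an unadjusted p under 0.05 in 1.

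Among the TEAD factors, TEAD3 was at 8.11, 8.48 and 7.23 TPM in vector, 15.3, 15.1 and 13.7 TPM in HIF1α-ko, 8.47, 6.98 and 6.99 TPM in HIF2α-ko and 34.5, 33.1 and 35.2 TPM in HIF1α/2α-ko. The difference from vector was 0.82 (SE 0.13, adjusted p = 0.00167) for HIF1α-ko, -0.08 (adjusted p = 0.76) for HIF2α-ko and 1.98 (SE 0.13, adjusted p = 1.25e-06) for HIF1α/2α-ko, and HIF1α/2α-ko was 1.16 above HIF1α-ko (adjusted p = 0.00011). TEAD2 was 1.88 above vector (adjusted p = 6.95e-05) and 1.10 above HIF1α-ko (adjusted p = 0.00539) in HIF1α/2α-ko. TEAD4 was lower in HIF2α-ko than in every other group, by -0.77 against vector (adjusted p = 0.00516), and was 1.11 higher in HIF1α-ko (adjusted p = 0.000141) and 1.28 higher in HIF1α/2α-ko (adjusted p = 1.63e-05) than in HIF2α-ko. TEAD1 varied from 1.83 to 6.46 TPM within HIF2α-ko alone, and its rise of 1.01 in HIF1α/2α-ko over vector (adjusted p = 0.0223) was lost in some alternatives, with adjusted p up to 0.113.

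YAP1 itself was at 12.8 to 25.4 TPM over the 12 libraries and was called in 0 of 6 contrasts by limma, with an unadjusted p under 0.05 in 0. WWTR1 fell by 0.80 in HIF1α/2α-ko against vector (SE 0.15, adjusted p = 0.00117), from 20.8 to 22.5 TPM down to 10.8 to 13.9 TPM. ANKRD1 was thus lowest in the group in which TEAD3 and TEAD2 were highest and WWTR1 lowest, while CCN1 was called between no pair of knockout groups in either fit.

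**Figure D2:**
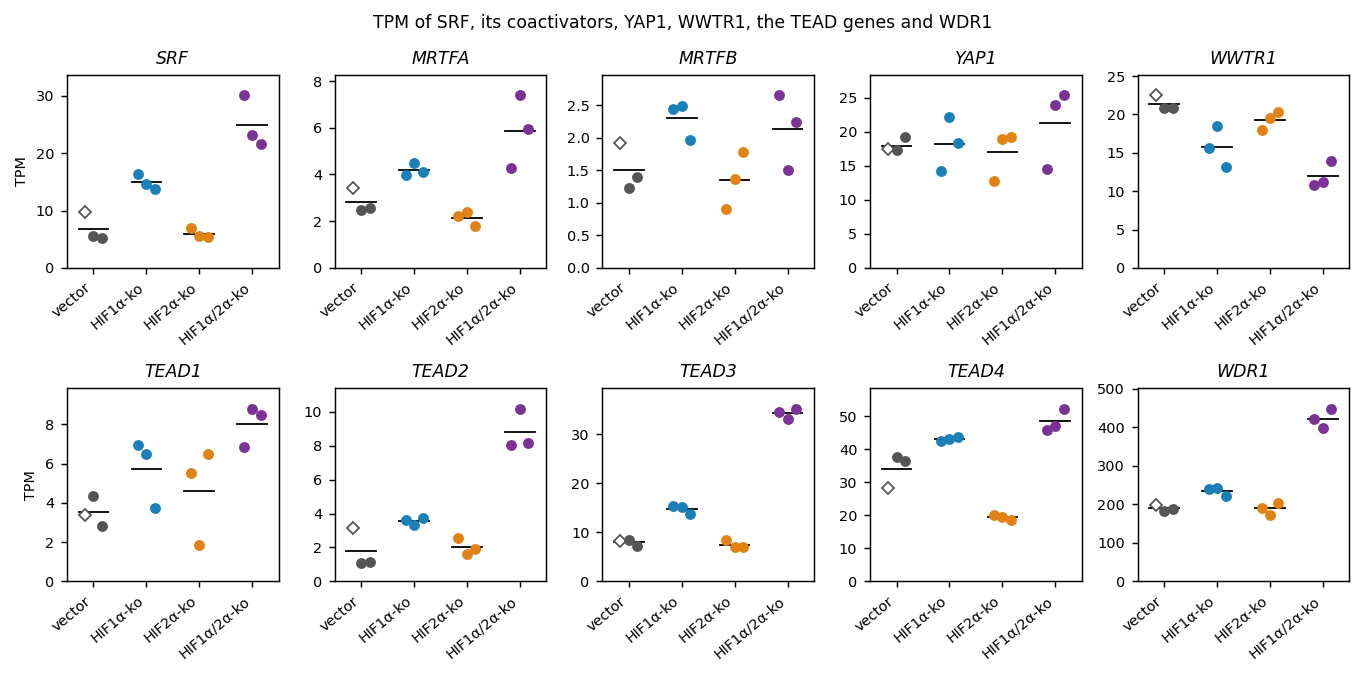
TPM (vertical axes, linear, from 0) of SRF, its coactivators MRTFA and MRTFB, YAP1, WWTR1, the 4 TEAD genes and WDR1 in the 12 libraries, by group. Each point is 1 library, the open diamond is vector library H1 and the black line is the mean of 3 libraries. SRF reaches 21.6 to 30.1 TPM and TEAD3 33.1 to 35.2 TPM in HIF1α/2α-ko, above all other libraries.

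Beyond these, 8 lists of related genes (134 genes, of which 125 were tested) were counted in the same fit. Over all 8 lists together, 25.6% were called in HIF1α-ko against HIF2α-ko, 28.8% in HIF1α/2α-ko against HIF1α-ko and 50.4% in HIF1α/2α-ko against HIF2α-ko, near the background of 25.1%, 28.3% and 46.4%. The fit of the knockout groups alone with the replicate number as a block called 70, 66 and 82 of the 125. The background in that fit was 50.5%, 48.5% and 62.6% of all tested genes.

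Of 8 tested actin and myosin isoforms, 2 were higher and 0 lower in HIF1α-ko than in HIF2α-ko, 1 was higher and 2 lower in the double knockout than in HIF1α-ko, and 3 were higher and 1 lower in the double knockout than in HIF2α-ko. These are 25.0%, 37.5% and 50.0% of the list, beside 25.1%, 28.3% and 46.4% of all tested genes. MYL12A, a light chain of non-muscle myosin, was 0.68 higher (SE 0.16, adjusted p = 0.00395) and MYL6, the essential light chain, 0.75 lower (-0.75, SE 0.13, adjusted p = 0.000532) in the double knockout than in HIF2α-ko. The counts of higher genes in the double knockout include ACTC1, cardiac α-actin, which was at 1.18, 1.33 and 1.37 TPM there and at 0.306 to 0.842 TPM in the other libraries. It passed the filter on low values only through that group, so no test is given for it. TPM2 was lower by -0.56 in the double knockout than in HIF1α-ko (adjusted p = 0.00894).

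Of 18 genes for actin binding and turnover, 3 were higher and 1 lower in HIF1α-ko than in HIF2α-ko, 3 were higher and 1 lower in the double knockout than in HIF1α-ko, and 9 were higher and 3 lower in the double knockout than in HIF2α-ko. In the last contrast the share called was 66.7%, beside 46.4% of all tested genes, and the median of the list was 0.49, beside 0.23 over all tested genes. In each of the other contrasts the share was 22.2%, beside 25.1% and 28.3% of all tested genes. WDR1, the AIP1 cofactor of cofilin, was at 419.9, 398 and 448 TPM in HIF1α/2α-ko and at 173 to 243 TPM in all other libraries, and it rose by 0.85 against HIF1α-ko (SE 0.10, adjusted p = 0.000153) and by 1.15 against HIF2α-ko (SE 0.10, adjusted p = 6.66e-06). LIMA1, a filament-bundling protein, rose by 0.95 against HIF1α-ko (adjusted p = 0.00368). TMSB10, a thymosin that binds actin monomers, fell by 0.91 in HIF1α/2α-ko against HIF2α-ko (adjusted p = 2.34e-05), a direction that turned under quantile normalization (0.25, adjusted p = 0.0465). It is among the most abundant transcripts, at 16857 to 34311 TPM.

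Of 20 stress fibre and focal adhesion genes, 2 were higher and 4 lower in HIF1α-ko than in HIF2α-ko, 3 and 3 in the double knockout than in HIF1α-ko, and 5 and 3 in the double knockout than in HIF2α-ko. ACTN1, a filament cross-linker, was at 181, 166 and 168 TPM in HIF2α-ko and at 339, 389 and 366 TPM in HIF1α/2α-ko (1.08, SE 0.11, adjusted p = 1.5e-05). ZYX, zyxin of focal adhesions, differed likewise (1.07, SE 0.13, adjusted p = 4.59e-05). PXN, paxillin, was lower by -0.96 in the double knockout than in HIF1α-ko (SE 0.17, adjusted p = 0.0013), and PALLD, palladin, higher by 0.70 (SE 0.13, adjusted p = 0.00201).

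Of 15 tested regulators and other targets of SRF and MRTF, 2 were higher and 3 lower in HIF1α-ko than in HIF2α-ko, 3 and 1 in the double knockout than in HIF1α-ko, and 3 and 4 in the double knockout than in HIF2α-ko. CSRP2, a muscle LIM protein, was at 3.34 to 4.62 TPM in HIF1α-ko and at 15.3 to 22.5 TPM in HIF2α-ko (-2.12, SE 0.19, adjusted p = 1.54e-05). TES, testin, was at 4.41 to 5.21 TPM in HIF1α/2α-ko and at 9.65 to 14.6 TPM in all other libraries (-1.34 against HIF1α-ko, SE 0.14, adjusted p = 7.25e-05). SRF was highest in HIF1α/2α-ko. Of its list, 3 genes, SRF itself among them, were higher there than in HIF2α-ko and 4, TES among them, were lower. The share of the list called in that contrast, 46.7%, was near the 46.4% of all tested genes. In the other contrasts it was 33.3% and 26.7%, beside 25.1% and 28.3% of all tested genes.

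Of 14 tested regulators of YAP and TEAD, 4 were higher and 0 lower in HIF1α-ko than in HIF2α-ko, 2 and 0 in the double knockout than in HIF1α-ko, and 6 and 2 in the double knockout than in HIF2α-ko. Of 19 tested other YAP targets, 3 were higher and 1 lower in HIF1α-ko than in HIF2α-ko, 2 and 5 in the double knockout than in HIF1α-ko, and 3 and 7 in the double knockout than in HIF2α-ko. In the same order, the share called was 28.6%, 14.3% and 57.1% of the regulators and 21.1%, 36.8% and 52.6% of the targets. Of all tested genes 25.1%, 28.3% and 46.4% were called. The median of these targets was -0.18 in the last contrast, beside 0.23 over all tested genes. IGFBP3, an IGF carrier, was at 223, 167 and 297 TPM in HIF1α/2α-ko and at 1550.4, 1513 and 2608 TPM in HIF1α-ko (-3.03, SE 0.38, adjusted p = 0.00016). RBMS3, an RNA-binding protein, was lower in the double knockout than in HIF2α-ko (-1.19, SE 0.19, adjusted p = 0.000339). GADD45A, a stress-response gene, went the other way, at 83.1, 119.5 and 91.3 TPM in HIF1α/2α-ko and at 33 to 44.2 TPM in all other libraries (1.40 against HIF1α-ko, SE 0.16, adjusted p = 0.000107).

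Of the 15 reference genes, 1 was higher and 2 lower in HIF1α-ko than in HIF2α-ko, 2 and 1 in the double knockout than in HIF1α-ko, and 3 and 2 in the double knockout than in HIF2α-ko. Of all tested genes 25.1%, 28.3% and 46.4% were called in these contrasts.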

How the data were processed

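Expression values were those deposited by the authors, as 1 table of TPM per gene and library, with no counts. The submitters' processing notes name GRCh38, FastQC 0.11.2, Trimmomatic 0.36, HISAT2 2.0 and bedtools 2.26.0 without roles, and the counter and annotation are not given in the sources used here. Read depth is therefore unknown. Gene symbols were matched for 20148 of 20263 identifiers, with GENCODE 29.

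Values were analysed as log2(TPM + 1), which understates the change of low genes. Genes with at least 1 TPM in at least 3 libraries (11731) entered a model in limma 3.58.1 (trended variance, R 4.3.3), all 4 groups in 1 model, and p-values were adjusted by Benjamini-Hochberg within each contrast with a threshold of 0.05. Tests are two-sided. Python 3.11.15 served for tables (pandas 2.3.3), for arithmetic (numpy 2.4.6) and for plots (matplotlib 3.10.9). The fit was tested on simulated data.

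The members and lists were chosen with earlier results of these data known. Beside the 10 members, the named genes were the 2 members of every list whose p was lowest for HIF1α/2α-ko against HIF1α-ko, likewise against HIF2α-ko, the SRF, MRTF, YAP and TEAD regulators, the reference genes, the targeted genes and the 5 genes most like ACTB. Comparisons against vector share the vector libraries. Deviations from group means were correlated between knockout libraries with the same replicate number. Pearson's r was 0.463 to 0.508 for number 1, 0.227 to 0.25 for number 2 and 0.196 to 0.222 for number 3. Pairs with different numbers were not compared. Deviations cancel within a group, so a shift shared by the first libraries alone also tends to correlate those of numbers 2 and 3. These values therefore cannot show that the numbers pair the libraries. The numbers were used as a block in a further fit of the knockout groups alone, which were also fitted without the block. Other scalings, pseudocounts, filters, models and single libraries left out were also tried. 1 reference gene and the single counts of 1 list are not reported here.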

Additional observations from a re-analysis of the deposited data

Results flagged for a closer look

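These values are differences between the HIF1α-ko and HIF2α-ko effects, or between either and HIF1α/2α-ko, that passed limma's test of the difference itself. ANKRD1 differed by -1.51 in HIF1α-ko against HIF2α-ko, by -0.59 in HIF1α/2α-ko against HIF1α-ko and by -2.09 in HIF1α/2α-ko against HIF2α-ko on the log2(TPM + 1) scale. In HIF1α-ko against HIF2α-ko the regulators SRF (1.19), TEAD3 (0.89) and TEAD4 (1.11) were higher, as were the cytoskeletal genes ACTN1 (0.87), ZYX (0.82), DIAPH1 (0.75), MYL12A (0.59) and WDR1 (0.31). CSRP2 (-2.12), RBMS3 (-0.67) and TMSB10 (-0.63) were lower, as were the glycolysis genes PGK1 (-2.01) and GAPDH (-1.85). With 3 libraries in each group, no group could be searched for a single far library by a gap test. Over 23 alternatives the call of WDR1 in this contrast was lost in 14, those of MYL12A and DIAPH1 in 4 each and that of RBMS3 in 3. That of TMSB10 was lost in 2, in 1 of which, quantile normalization, its sign also turned (0.25). The calls of SRF, TEAD3, TEAD4, ACTN1, ZYX, CSRP2, PGK1 and GAPDH were made in all 23.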

How the results depend on the processing

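Of 119 called results of named genes, 82 kept their call in every alternative and 37 lost it in at least 1. These counts include results of ACTC1, which passed the filter only through the double knockout and for which no test is given. 3 settings were chosen after seeing the data: leaving out library 1 of every group, the knockout groups alone, and the replicate block with median ratio scaling. Both fits with the block also leave out the vector libraries. A block over all 4 groups was not run, because the vector columns carry no replicate number. In the order HIF1α-ko against HIF2α-ko, HIF1α/2α-ko against HIF1α-ko and HIF1α/2α-ko against HIF2α-ko, the knockout groups alone called 1, 1 and 2 of the 10 members, with the replicate block 7, 3 and 6, the block with median ratio scaling 3, 2 and 5, and leaving out library 1 of every group 6, 2 and 5, against 1 in each. Fits of the 2 groups alone called 2 members in both contrasts with HIF2α-ko, as did a pseudocount of 0.1 and a mean TPM of 5 in HIF1α/2α-ko against HIF2α-ko. Leaving out 1 library gave 1 to 2, 0 to 2 and 1 to 3 members. Against vector, with HIF1α-ko first, then HIF2α-ko, then HIF1α/2α-ko, leaving out 1 library gave 2 to 7, 0 to 6 and 3 to 7 members, and leaving out library 1 of every group gave 7, 8 and 7. Of all 11731 tested genes, that last setting called 4601 higher and 1860 lower for HIF1α-ko. The counts were 2403 higher and 1880 lower for HIF2α-ko, then 5316 higher and 2234 lower for the double knockout. Without a filter 2 members were called in HIF1α-ko. In HIF2α-ko 2 were called with a mean TPM of 5, with median ratio scaling, with quantile normalization and without the trend, and 0 in the fit of the 2 groups. Of the 125 listed genes, the block called 70 and 66 in the contrasts of HIF1α-ko with HIF2α-ko and with HIF1α/2α-ko. The background there was 50.5% and 48.5% of all tested genes. The block with median ratio scaling called 58 and 64 listed genes. Over all tested genes it called 2292 higher and 2507 lower in HIF1α-ko against HIF2α-ko. In HIF1α/2α-ko against HIF1α-ko these were 3271 and 2452. Leaving out library 1 of every group gave 63 and 60 listed genes, beside 47.1% and 45% of all tested genes. Leaving out 1 library gave 20 to 40, 26 to 46 and 47 to 66 between knockouts and 14 to 47, 10 to 28 and 50 to 65 against vector. Against vector, fits of the 2 groups called 19 listed genes for HIF1α-ko and 10 for HIF2α-ko, and leaving out library 1 of every group 73 and 46 likewise. For that last setting the counts over all tested genes are those given above.

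The sign turned in these cases, and the cause was not tested. In HIF1α/2α-ko against HIF1α-ko, ACTG1 was -0.00 under quantile normalization, -0.03 without library 1 of every group, -0.07 without HIF1α-ko replicate 3 and -0.09 without HIF1α/2α-ko replicate 1. ACTA2 was 0.03 without library 1 of every group and 0.06 without HIF1α-ko replicate 1. TAGLN was 0.04 without library 1 of every group and 0.02 without HIF1α/2α-ko replicate 1. MYL9 was -0.02 without HIF1α-ko replicate 3 and -0.03 without HIF1α/2α-ko replicate 1. CCN1 was 0.19 without HIF1α-ko replicate 1, and 0.12 and 0.04 without HIF1α/2α-ko replicates 2 and 3. In HIF1α/2α-ko against HIF2α-ko, median ratio scaling, with or without the replicate block, gave TAGLN -0.00, TPM1 -0.15 and CCN1 -0.15, and quantile normalization gave TAGLN -0.06 and TPM1 -0.07. TAGLN was -0.11 without HIF1α/2α-ko replicate 3, and CCN1 was -0.00 without HIF2α-ko replicate 3 and -0.10 without HIF1α/2α-ko replicate 1. In HIF1α-ko against HIF2α-ko, CCN1 was -0.10 under median ratio scaling with or without the block and -0.07 without HIF1α-ko replicate 1. TMSB10 under quantile normalization was 0.25 in both contrasts with HIF2α-ko and 0.38 in HIF1α/2α-ko against vector.
Over the fits that left out 1 library, the far end of the range was 0.09 for ACTG1, -0.18 for ACTA2, -0.68 for TAGLN and -0.25 for CCN1 in HIF1α/2α-ko against HIF1α-ko, 0.59 for TAGLN and 0.34 for CCN1 in HIF1α/2α-ko against HIF2α-ko, and 0.37 for CCN1 in HIF1α-ko against HIF2α-ko.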
